A study of Mus musculus with 18 samples.

Results

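The comparison concerned bone marrow mesenchymal stem cells (MSCs) of the mouse in culture, taken 1 week after Cre recombinase had been applied, with libraries labelled Pot1a Δ/Δ set against libraries labelled Pot1a wt/wt. The 6 samples labelled in vitro and week 1 were taken, 3 in each group, of 18 samples in the series. All genes of the deposited count table were considered. Of the other 12 samples, the 6 cultured to week 4 were used to ask whether an effect differed between the weeks, and the rest were not used here.

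Cells of the Δ/Δ group came from Pot1a flox/flox mice and those of the wt/wt group from Pot1a wild/wild mice. Both groups carried a flox-stop-flox tdTomato reporter, both were given as strain C57BL/6 and as 4-6 months old, and both received Cre, as gesicles (vesicles that carry the protein) at 10 μL per well for 12 hours. Marrow of femurs and tibiae was cultured, CD51+/PDGFRα+ adherent cells were sorted, and tdTomato+ cells were sorted again 48 hours after Cre. The designation of the floxed allele is of a mixed background, whereas the labels give C57BL/6 alone. For this experiment 3 mice per group are given. Since every library was treated with Cre, the groups differed in the mice of origin as well as in the allele, and these cannot be told apart here.

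POT1a is a subunit of shelterin, the complex that coats telomeres. It binds the single-stranded end of the telomeric repeat and keeps it from being read as damaged DNA, a task it shares in the mouse with its paralogue POT1b. MSCs of the marrow give rise to osteoblasts, adipocytes and chondrocytes, secrete matrix and growth factor antagonists, and supply CXCL12 and other factors to blood stem cells.

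Library totals were 26406407 to 32507056 counts in the wt/wt group and 16497756 to 33353069 in the Δ/Δ group. The first principal component of the 500 most variable genes held 54.8% of their variance and separated the groups, the wt/wt libraries lying at 11.6 to 21.02 and the Δ/Δ libraries at -17.1 to -12.4. All 20 MSC markers had a count in at least 1 library, and 18 had enough counts to be tested, while Thy1 and Ngfr were near 0. The summed level of the 20 was 4190 to 4822 CPM (counts scaled to a common library size by the trimmed mean of M values) in wt/wt and 4823 to 5075 in Δ/Δ libraries. Itgb1 held the largest part, at 1914 to 2184 CPM in wt/wt and 1976 to 2327 CPM in Δ/Δ libraries. Of 23 blood cell markers, 10 were at 0 in all 6 libraries, among them Itgam and Cd3e. No library had a count for any of 4 Y-linked genes.

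Pot1a itself did not separate the groups. Its level was 34.3, 33.8 and 36.6 CPM in wt/wt replicates 1 to 3 and 31.1, 37.9 and 34.6 CPM in the libraries labelled Δ/Δ. The means were 34.9 ± 1.51 and 34.5 ± 3.41 CPM (SD, n = 3), and the groups overlapped. The log2 fold change, Δ/Δ over wt/wt as in all comparisons here, was -0.02 ± 0.11 (SE), with an adjusted p of 0.987 by the quasi-likelihood F test of edgeR, adjusted after Benjamini and Hochberg, the source of every adjusted p given here. An exact two-sided permutation test gave p = 1.0, where 3 against 3 libraries cannot go below 0.1. The 95% interval ran from 83.9% to 116.7% of the wt/wt level. Pot1a lies at chr6:25743940-25809277 (GRCm38.p6). Its counts were summed over all exons, so that a transcript lacking only the floxed exons would still be counted, and which exons are floxed was not given in the sources used here. The deletion was therefore not checked by these counts, and Δ/Δ stands for the label in every direction given below. At week 4 Pot1a was called higher in the libraries labelled Δ/Δ (log2 0.39, adjusted p = 0.0298 by edgeR). The paper reports, by qPCR, a significant reduction of Pot1a mRNA after Cre in such cells, and a deletion band by electrophoresis.

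Of 13169 genes tested after a filter on low counts, 134 passed the threshold of 0.05 at week 1 (1.02%). The higher genes numbered 99 (0.752%) and the lower genes 35 (0.266%), with 60 and 23 of them changed at least 2-fold. In 133 of the 134 the groups did not overlap, the exception being Nr4a1, a number set by the choice of called genes and read here as a description. For scale, every Δ/Δ library lay below every wt/wt library in 10.8% of all genes tested and above in 11.8%. The median log2 fold change of all genes was -0.0036. Leaving out wt/wt replicate 1, 2 or 3 gave 181, 55 and 57 calls, leaving out Δ/Δ replicate 1, 2 or 3 gave 74, 52 and 49, and 39 of the 134 genes were called in each of those 6 fits. By unadjusted p, 1570 genes lay under 0.05.

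**Figure D1:**
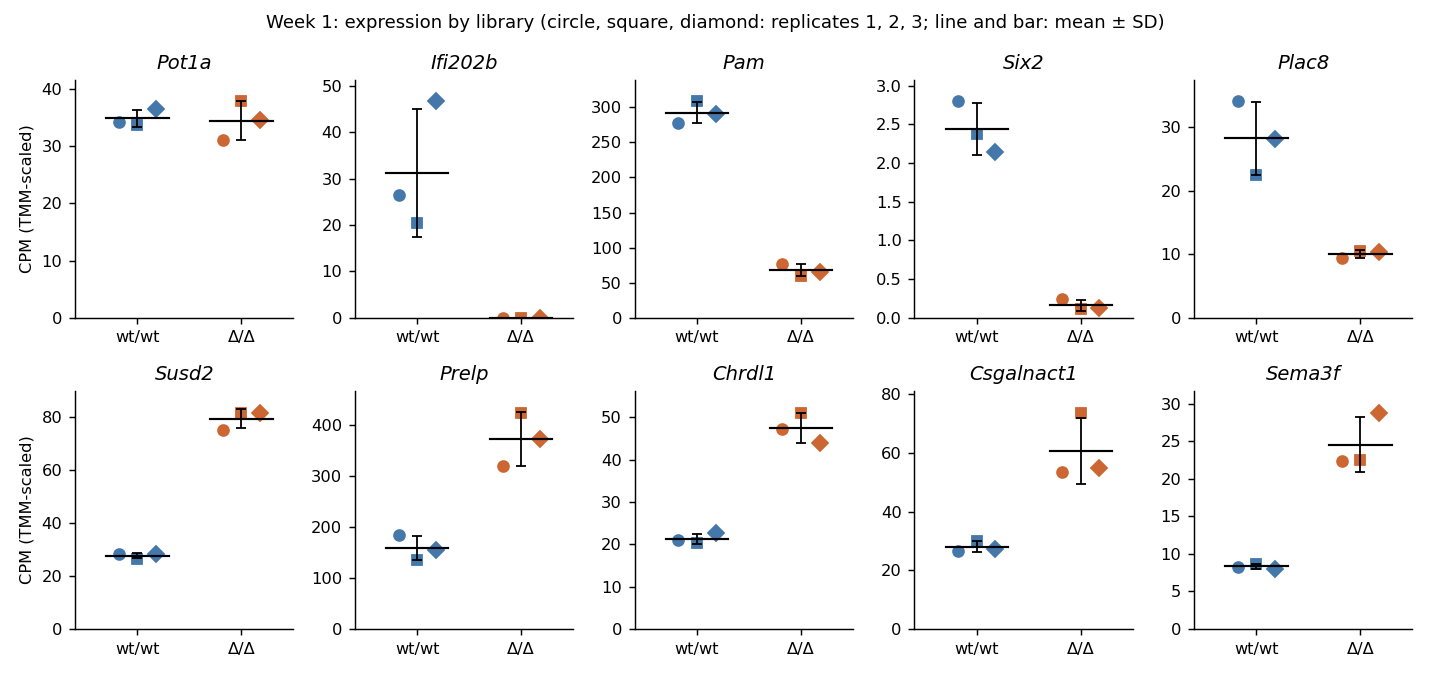
CPM (y axis, from 0) of 10 genes in the 6 week 1 libraries, wt/wt on the left and Δ/Δ on the right of each panel, with the mean and SD of 3 libraries. Pot1a overlapped between the groups, while Ifi202b, Pam, Six2 and Plac8 were lower and Susd2, Prelp, Chrdl1, Csgalnact1 and Sema3f higher in every Δ/Δ library.

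The firmest falls were in genes of separate functions, and each gene of this paragraph was called in all 6 fits that left out a library. Pam, which encodes the enzyme that amidates peptide hormones, was at 278, 309 and 291 CPM in wt/wt and 76.8, 60.02 and 65.6 CPM in Δ/Δ libraries. Its level thus fell 4.33-fold (log2 -2.12 ± 0.13, adjusted p = 8.97e-06 by edgeR), and the spread within either group was small beside the gap. Six2, a homeobox transcription factor of limb and kidney mesenchyme, was low in both groups, with 2.800, 2.38 and 2.14 CPM against 0.242, 0.111 and 0.122 CPM, a log2 fold change of -4.00 ± 0.31 that rests on 10 counts over the 3 Δ/Δ libraries against 211. Plac8, a small cysteine-rich protein, fell from 28.2 ± 5.77 to 10.1 ± 0.649 CPM (adjusted p = 0.000982 by edgeR). The Δ/Δ libraries held a narrow range for it, 9.32 to 10.5 CPM.

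Pop4, Mmadhc and Cav1 fell with little spread. Pop4, a protein subunit of ribonuclease P and MRP, was at 33.9, 34.2 and 33.98 CPM in wt/wt and 12.8, 16.1 and 14.6 CPM in Δ/Δ libraries (log2 -1.23 ± 0.14). Mmadhc, which directs vitamin B12 to its enzymes, was at 219.5, 215 and 228 CPM in wt/wt and 106, 120.1 and 111 CPM in Δ/Δ libraries (log2 -0.97 ± 0.11). Cav1, the coat protein of caveolae, was at 334, 315 and 343 CPM in wt/wt and 204, 157 and 141 CPM in Δ/Δ libraries (log2 -0.98 ± 0.15, adjusted p = 0.00649 by edgeR). In all of them the lowest wt/wt library stood well above the highest Δ/Δ library. Sncg (gamma-synuclein) at log2 -1.44 ± 0.21 and Fap, the serine protease known as fibroblast activation protein, at -1.20 ± 0.13 belonged to the same firm set.

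Other falls kept their direction when a library was left out, but not their call in all 6 fits. Col15a1, a basement membrane collagen, had a log2 fold change of -1.01 ± 0.17. Its call was lost without wt/wt replicate 2 or Δ/Δ replicate 2 or 3 (adjusted p up to 0.0775 by edgeR). It was the only one of 36 collagens tested that was called, beside 1.02% of all genes. The list leaned the other way, with 26 of the 36 above 0, 9 below and a median of 0.23. Ptn (pleiotrophin, a niche factor for blood stem cells) at -1.25 ± 0.25, B3gnt3 (a glycosyltransferase) at -0.91 ± 0.19 and Grem1 (a secreted BMP antagonist and stromal marker) at -1.04 ± 0.21 lost the call without any 1 of the 6 libraries, with adjusted p up to 0.195 for Grem1 by edgeR. Grem1 was nevertheless lower in each Δ/Δ library, at 6.17, 4.09 and 5.08 CPM against 12.4, 10.2 and 8.92 CPM. Pparg, the master transcription factor of adipocytes, fell by 0.56 ± 0.10 on the log2 scale, from 131, 135 and 138 CPM to 88.1, 91.5 and 94.2 CPM. It kept its call only without wt/wt replicate 1, adjusted p reaching 0.108 by edgeR in the other 5 fits.

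By number of calls upward, the list of matrix glycoproteins and proteoglycans came first of all lists. Shorter lists had larger shares, such as 2 of the 6 blood cell markers tested. Of 54 matrix genes tested, 6 rose and none fell, beside 0.752% and 0.266% of all genes. The median of the matrix list was 0.20 beside -0.0036 for all genes. Prelp, a leucine-rich proteoglycan that anchors basement membranes, was at 183, 136 and 155 CPM in wt/wt and 318, 423 and 372 CPM in Δ/Δ libraries (log2 1.23 ± 0.14, adjusted p = 0.000982 by edgeR). It kept its call in all 6 fits without a library. Comp, a matrix protein of cartilage and tendon, rose by 1.25 ± 0.26, with 50.6, 49.6 and 77.7 CPM in the Δ/Δ libraries and 29.6, 26.6 and 18.7 CPM in wt/wt. Mfap5 of microfibrils rose by 1.02 ± 0.18, Fbln5, which assembles elastic fibres, by 0.78 ± 0.13, Fbln7 by 0.91 ± 0.15 and Spon2 by 0.72 ± 0.14. These 5 were called only with all 6 libraries or without some: Comp was called without wt/wt replicate 1 alone, Mfap5 and Fbln5 without wt/wt replicate 1 or Δ/Δ replicate 1, Fbln7 without wt/wt replicate 1 or Δ/Δ replicate 2, and Spon2 in no such fit, with adjusted p up to 0.183 for Comp by edgeR. Every Δ/Δ library exceeded every wt/wt library in 17 of the 54, beside 11.8% of all genes.

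Enzymes that build or cut matrix also appeared. Csgalnact1, which starts chondroitin sulphate chains, rose by 1.12 ± 0.14, from 26.7, 30.1 and 27.3 CPM to 53.6, 73.7 and 54.9 CPM, and Abi3bp, a matrix-bound protein, by 1.24 ± 0.21, the latter lost without wt/wt replicate 2 or 3 or Δ/Δ replicate 2 (adjusted p up to 0.0741 by edgeR). Of 41 matrix proteases and inhibitors, Adamts15 and Adamts17 rose and Fap fell, beside 0.752% of all genes higher and 0.266% lower. The ADAMTS genes were near the limit of detection, Adamts15 at 2.36, 1.33 and 1.55 CPM in Δ/Δ against 0.298, 0.117 and 0.459 CPM in wt/wt and Adamts17 at 1.21, 1.55 and 0.973 against 0.417, 0.195 and 0.306 CPM. Adamts15 lost its call without wt/wt replicate 2 or Δ/Δ replicate 1 or 3 (adjusted p up to 0.0709), and Adamts17 kept its call only without wt/wt replicate 1 (up to 0.125, both edgeR).

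Secreted modulators of BMP signals moved in both directions. Of 59 TGF-beta and BMP pathway genes, 3 rose and 2 fell, beside 0.752% and 0.266% of all genes. Among ligands, Gdf10, a distant BMP family member, rose by 2.13 ± 0.23 from a low level, 0.655, 0.702 and 0.306 CPM in wt/wt and 2.299, 2.49 and 2.55 CPM in Δ/Δ libraries (adjusted p = 0.000982 by edgeR). Among antagonists, Chrdl1 (chordin-like 1) rose from 21.03, 20.3 and 22.6 to 47.3, 51.1 and 44.02 CPM, a log2 change of 1.16 ± 0.13, and Nog (noggin) rose by 1.23 ± 0.26, whereas Grem1 fell. Among targets, Id1, a dominant negative partner of bHLH factors, fell by 0.75 ± 0.16. Gdf10 and Chrdl1 kept their calls in all 6 fits without a library. Nog and Id1 were called without wt/wt replicate 1 and in none of the other 5, with adjusted p up to 0.225 and 0.183 by edgeR. Bmper, a BMP-binding protein outside the list that was picked after its values were seen, rose by 0.95 ± 0.15, its call lost without wt/wt replicate 2 or Δ/Δ replicate 2 or 3 (up to 0.0645 by edgeR).

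Of 48 Wnt pathway genes 2 rose, beside 0.752% of all genes. Nkd1, an inducible inhibitor of Wnt signals, was at 11.1, 9.67 and 8.76 CPM in wt/wt and 17.00, 19.7 and 21.6 CPM in Δ/Δ libraries (log2 0.98 ± 0.13) and kept its call throughout the 6 fits. Fzd4, a Wnt receptor, rose by 0.81 ± 0.16, and was called without wt/wt replicate 3 only (adjusted p up to 0.154 by edgeR). Porcn, which acylates Wnt ligands for secretion and was picked after its values were seen, rose from 19.2, 13.3 and 17.3 to 30.8, 34.7 and 32.6 CPM (log2 0.98 ± 0.14, adjusted p = 0.00581 by edgeR). The median of the Wnt list was 0.11.

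Guidance and complement genes and Apoe were among the other rises. Sema3f and Sema3b, secreted semaphorins, rose by 1.57 ± 0.22 and 1.11 ± 0.14, Sema3f from 8.28, 8.66 and 7.998 to 22.4, 22.5 and 28.8 CPM. Susd2, a sushi domain protein of the cell surface, rose 2.87-fold, from 28.1, 26.6 and 28.3 to 75.2, 81.4 and 81.7 CPM. In a list of 17 complement and acute phase genes drawn up after the values were seen, 14 were tested and 3 rose: the C1 protease gene C1s1 (0.84 ± 0.09), the extracellular chaperone clusterin Clu (1.04 ± 0.18) and haptoglobin Hp (0.77 ± 0.14). Every Δ/Δ library exceeded every wt/wt library in 10 of these 14. Over all genes it did so in 11.8%, and 0.752% were called higher. Apoe, the apolipoprotein, rose from 12.7, 8.81 and 9.22 to 26.01, 24.04 and 21.9 CPM. Of 39 adipocyte genes tested it alone was called higher, beside 0.752% of all genes, and Pparg was called lower. Sema3f, Sema3b, Susd2 and C1s1 were called in all 6 fits without a library, whereas Apoe was lost without wt/wt replicate 2 or 3 (adjusted p up to 0.0675 by edgeR), Clu without those or Δ/Δ replicate 2 or 3 (up to 0.103) and Hp in 5 of the 6 (up to 0.115). Among the 15 largest rises were also Tbxa2r, the thromboxane receptor (1.26 ± 0.23), Tfr2, a transferrin receptor (1.18 ± 0.24) and Hpgd, which degrades prostaglandins (1.06 ± 0.19), with adjusted p up to 0.155 for Tfr2 by edgeR in those fits. Tbxa2r kept its call only without wt/wt replicate 1, Tfr2 without wt/wt replicate 1 or Δ/Δ replicate 1, and Hpgd without wt/wt replicate 3 or Δ/Δ replicate 1.

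**Figure D2:**
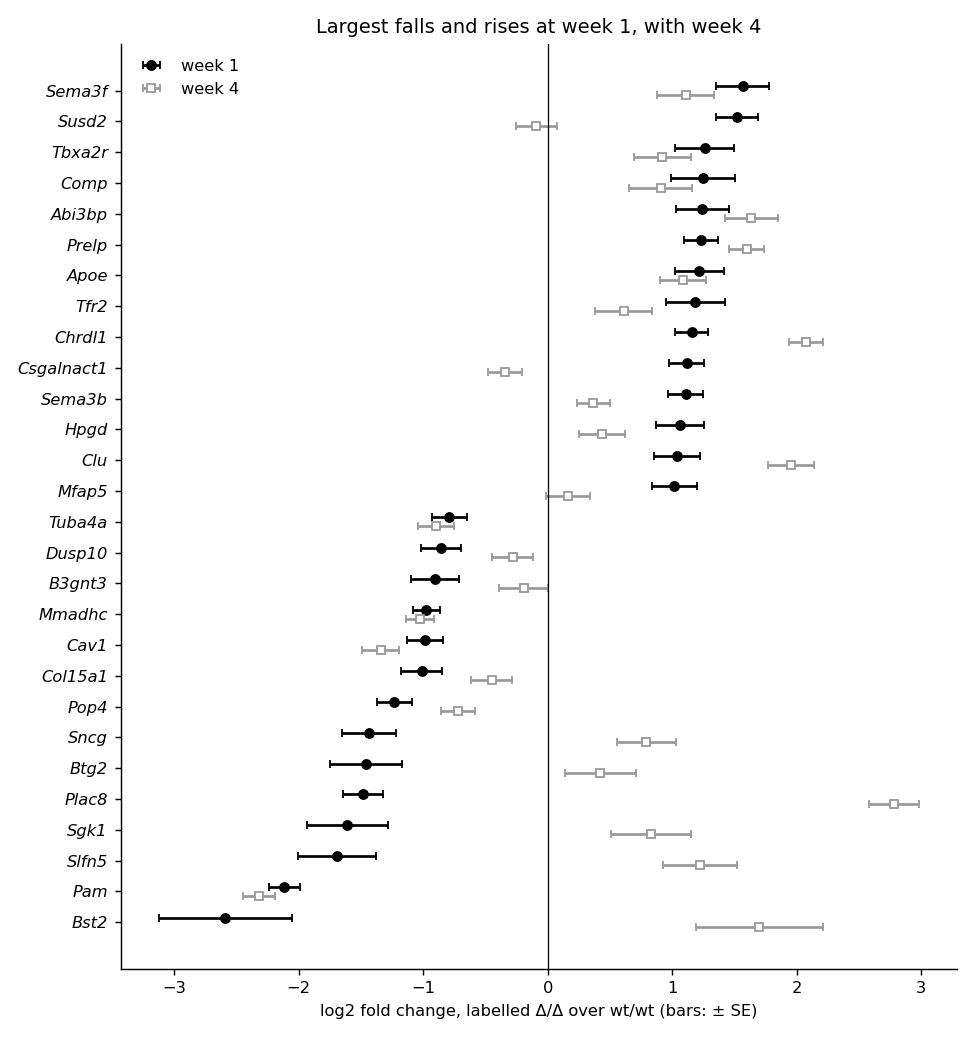
Week 1 log2 fold change (x axis, filled circles) of 14 of the 15 largest rises and 14 of the 15 largest falls among called genes that reached 3 in mean log2 CPM and whose groups did not overlap, and of the same genes at week 4 (open squares), bars ± SE. Pam, Mmadhc, Cav1, Pop4, Prelp and Sema3f keep their side at week 4, while Bst2, Slfn5, Sgk1, Plac8, Btg2 and Sncg cross 0.

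Interferon-stimulated genes were lower as a list, with few single calls. Of 44 tested, all 44 had a log2 fold change below 0 and the median was -1.57. In 31 of the 44 every Δ/Δ library lay below every wt/wt library, against 10.8% of all genes. The test was passed by Oas1a, a sensor of double-stranded RNA, and Bst2 (tetherin, which holds budding viruses at the cell surface). Oas1a stood at 4.59, 4.17 and 19.6 CPM in wt/wt and 0.423, 0.166 and 0.213 CPM in Δ/Δ libraries (log2 -5.18 ± 0.93, adjusted p = 0.0191 by edgeR). Bst2 stood at 30.2, 22.9 and 98.3 CPM in wt/wt and 7.99, 6.91 and 10.1 CPM in Δ/Δ libraries (log2 -2.59 ± 0.54, adjusted p = 0.0426, edgeR). The wt/wt group was far from even, since replicate 3 held the highest level in 39 of the 44 genes.

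Genes short of the threshold showed that spread. Usp18, a deubiquitinase-like brake on the interferon receptor, was at 20.01, 8.46 and 71.8 CPM in wt/wt and 0.726, 1.66 and 1.61 CPM in Δ/Δ libraries (adjusted p = 0.0683 by edgeR). For Ifit1, which binds foreign capped RNA, the values were 46.2, 7.995 and 61.3 against 2.36, 2.43 and 2.61 CPM (adjusted p = 0.0633, edgeR), and for the ubiquitin-like Isg15 they were 8.91, 3.32 and 37.3 against 1.81, 1.27 and 1.31 CPM. The Δ/Δ libraries were low and close together in each of these, and the wt/wt libraries spanned several-fold. The summed level of the 49 listed genes was 1406, 1154 and 2919 CPM in wt/wt and 799, 886 and 887 CPM in Δ/Δ libraries. Without wt/wt replicate 1 the list median was -1.77 with 3 genes called, without wt/wt replicate 2 -2.05 with 4, and without wt/wt replicate 3 -0.86 with 1. Without Δ/Δ replicate 1, 2 or 3 it was -1.93, -1.60 and -1.71 with no gene called. Bst2 lost its call without wt/wt replicate 3 or any 1 Δ/Δ library (adjusted p up to 0.196), and Oas1a without any 1 Δ/Δ library (up to 0.115, both edgeR). Slfn5, a Schlafen protein that was outside the list, fell by 1.69 ± 0.31 and lost its call under the same 4 omissions as Bst2 (up to 0.1199).

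In the Ifi200 family of interferon-inducible DNA-binding proteins 2 of 6 genes tested were called, beside 1.02% of all genes. Ifi202b was at 26.5, 20.5 and 46.7 CPM in wt/wt and had no count in any library labelled Δ/Δ, at least 703-fold lower when 3 counts over the group are taken as the limit. Its call held in all 6 fits without a library, and it had no overlap with its neighbours' exons. Ifi203 was at 3.63, 2.38 and 7.23 CPM in wt/wt and 0.181, 0.221 and 0.122 CPM in Δ/Δ libraries (log2 -4.71 ± 0.69), with the call lost without Δ/Δ replicate 3 (adjusted p = 0.0563 by edgeR). Its exons overlap those of Mndal on the same strand, and members of this family are close in sequence, so reads may be split between them. Every Δ/Δ library was below every wt/wt library in 6 of the 6, beside 10.8% of all genes.

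Promoters of 4 interferon-related genes called lower are shown, chosen because their windows hold the motif described next. Interferon response factors bind repeats of GAAA, and the windows were searched on both strands for GAAA followed, after any 2 bases, by a further GAAA, in capitals below. The windows run from 250 bases before to 50 after the start of the RefSeq transcript (GRCm38.p6, all 4 read in the direction of the gene, Ifi203 having a further window not shown).
Oas1a, chr5:120907476-120907775, minus strand: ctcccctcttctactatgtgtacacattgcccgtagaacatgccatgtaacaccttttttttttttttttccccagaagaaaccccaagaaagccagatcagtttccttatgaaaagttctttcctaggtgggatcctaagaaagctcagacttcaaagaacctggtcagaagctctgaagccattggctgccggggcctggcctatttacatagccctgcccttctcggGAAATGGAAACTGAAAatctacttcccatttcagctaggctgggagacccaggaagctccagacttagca
Bst2, chr8:71537423-71537722, minus strand: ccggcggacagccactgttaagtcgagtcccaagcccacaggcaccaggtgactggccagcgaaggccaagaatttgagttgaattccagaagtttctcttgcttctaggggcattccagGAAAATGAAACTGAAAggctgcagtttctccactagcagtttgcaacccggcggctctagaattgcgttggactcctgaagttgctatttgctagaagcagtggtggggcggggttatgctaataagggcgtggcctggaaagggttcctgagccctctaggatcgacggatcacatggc
Slfn5, chr11:82951852-82952151, plus strand: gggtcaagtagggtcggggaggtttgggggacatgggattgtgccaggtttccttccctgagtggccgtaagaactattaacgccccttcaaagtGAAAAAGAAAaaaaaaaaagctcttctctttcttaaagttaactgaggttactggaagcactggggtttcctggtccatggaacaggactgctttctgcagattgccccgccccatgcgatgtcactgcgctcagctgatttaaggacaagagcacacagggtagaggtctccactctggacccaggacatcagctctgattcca
Ifi203, chr1:173942443-173942742, minus strand: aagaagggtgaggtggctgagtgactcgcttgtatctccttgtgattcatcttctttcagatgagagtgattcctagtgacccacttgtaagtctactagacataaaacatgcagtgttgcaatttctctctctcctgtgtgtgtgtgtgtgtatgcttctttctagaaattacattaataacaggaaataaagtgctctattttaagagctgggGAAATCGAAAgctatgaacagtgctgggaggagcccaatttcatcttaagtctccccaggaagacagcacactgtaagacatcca
In Oas1a the first of 2 overlapping matches began 20 bases before the start, and in Bst2 the first of 2 overlapping matches began 130 bases before it. Slfn5 and Ifi203 held 1 match each, 155 and 35 bases before the start. The motif occurred in 3.44% of all 32851 RefSeq promoter windows. By gene it occurred in 18 of the 32 tested interferon-stimulated genes with a window, in 5 of 27 genes called lower (these 4 and Sgk1) and in 4 of 65 called higher. Over all genes tested it occurred in 364 of 9980 with a window (3.65%). Ifi202b, also called lower, had no match in its window, which is not shown. A match describes the sequence and not a bound site.

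**Figure D3:**
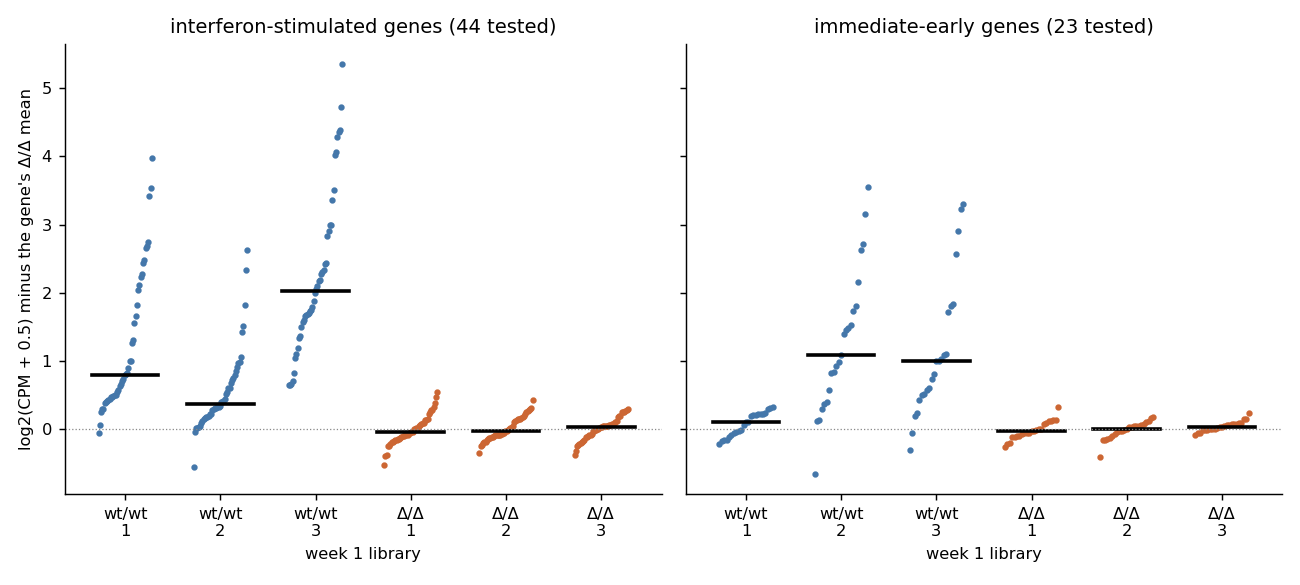
Each point is a gene, plotted as log2(CPM + 0.5) minus that gene's mean over the 3 Δ/Δ libraries (y axis), for each week 1 library (x axis), with the library's median as a bar. Interferon-stimulated genes have medians of 0.79, 0.37 and 2.03 in wt/wt replicates 1, 2 and 3, and immediate-early genes 0.10, 1.08 and 0.99.

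Immediate-early genes, which respond within minutes to serum or stress, had a different pattern across the wt/wt libraries. Of 23 tested, 2 were called, both lower, beside 0.266% of all genes, and the list median was -0.81. Nr4a1, a nuclear receptor, was at 19.3, 246 and 208 CPM in wt/wt and 20.5, 18.5 and 22.8 CPM in Δ/Δ libraries (log2 -2.93 ± 0.63, adjusted p = 0.04996 by edgeR). Btg2, an antiproliferative gene that is also a p53 target, was at 112, 317 and 316 CPM in wt/wt and 86.7, 97.8 and 86.5 CPM in Δ/Δ libraries (log2 -1.46 ± 0.29). Egr1, a zinc finger factor that missed the threshold (adjusted p = 0.0638 by edgeR), was at 251, 1071 and 855 CPM against 237, 247 and 238 CPM. In each of them wt/wt replicate 1 sat at or near the Δ/Δ level and replicates 2 and 3 were high. Over the list, wt/wt replicate 1 lay at or below the highest Δ/Δ library in 11 of 23 genes, replicate 2 in 1 and replicate 3 in 2. Sgk1, a serum- and stress-induced kinase outside the list, had the same shape at 134, 425 and 449.9 CPM against 116, 105 and 109 CPM. Without wt/wt replicate 1 the list had 13 calls, and without any other 1 library it had none. Nr4a1, Btg2 and Sgk1 then had adjusted p up to 0.209, 0.142 and 0.169 by edgeR.

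Telomere and damage genes were not called. None of 7 shelterin genes passed the test, their log2 fold changes running from -0.22 (Terf1) to 0.10, with Terf1 and Tinf2 having the smallest p. Telomerase and CST genes gave 0 calls of 12, the smallest p belonging to Gar1 (-0.48 ± 0.23) and Tert (0.40 ± 0.21). DNA damage signalling and repair gave 0 of 33 with a median of -0.07, Mre11a (-0.29 ± 0.10) and Nbn (-0.26 ± 0.13) coming nearest. In the p53 target list 1 of 23 was called, Btg2, with a median of 0.11, while 4 lay under 0.05 before adjustment and DESeq2 called 2. CDK inhibitors gave 0 of 7, among them Cdkn1c at -0.57 ± 0.20 and Cdkn2b at 0.34 ± 0.17. By unadjusted p of edgeR, 0 shelterin, 0 telomerase and CST, 1 damage and 1 CDK inhibitor gene lay under 0.05, and DESeq2 called 0 in each of these 4.

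Proliferation and DNA replication genes had no call in 37, and 33 of the 37 had a log2 fold change below 0. The list median was -0.18, and in 22 of the 37 every Δ/Δ library lay below every wt/wt library, beside 10.8% of all genes. Cdc6, which loads the replicative helicase, was at 21.1, 26.8 and 28.2 CPM in wt/wt and 16.8, 19.4 and 17.8 CPM in Δ/Δ libraries, and Mcm4, a helicase subunit, at 121, 139 and 151 CPM in wt/wt and 110.1, 97.8 and 109 CPM in Δ/Δ libraries (adjusted p = 0.254 and 0.182 by edgeR). By unadjusted p of edgeR 8 of the 37 lay under 0.05, and DESeq2 called 0.

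The respiratory chain list (56 tested), fatty acid oxidation (33), cholesterol synthesis (27), glycolysis and hypoxia (30) and antioxidant defence (44) gave no call, with medians between -0.11 and -0.02. In the last of these Nqo1, a quinone reductase, was nearest, at -0.40 ± 0.10 (adjusted p = 0.0796 by edgeR). By unadjusted p of edgeR 4, 3, 4, 2 and 8 genes of these lists lay under 0.05, and DESeq2 called 0, 0, 1, 0 and 2. Igf2, a growth factor of the IGF system list in which 0 of 18 were called (5 under 0.05 before adjustment by edgeR, 2 called by DESeq2), was at 24.3, 11.2 and 11.8 CPM in wt/wt and 33.2, 32.99 and 40.95 CPM in Δ/Δ libraries (adjusted p = 0.0825 by edgeR).

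Genes assayed by qPCR in the study were mostly short of the threshold at week 1. Their list also held Pot1a, the reference genes Actb and Gapdh, and Cd36, which the study named from RNA sequencing. Of 16 tested in this list, Pparg alone was called. The osteoblast alkaline phosphatase Alpl was at 571, 555 and 564 CPM in wt/wt and 755, 822 and 749 CPM in Δ/Δ libraries, without overlap (log2 0.46 ± 0.12, adjusted p = 0.0939 by edgeR). Among bone matrix genes, neither of which was called, Col1a1 was at 0.47 ± 0.33 and Spp1 (osteopontin) at -0.52 ± 0.21. Cxcl12, the chemokine that retains blood stem cells, was at 3573, 2738 and 3671 CPM in wt/wt and 4932, 4482 and 4775 CPM in Δ/Δ libraries (log2 0.51 ± 0.15, adjusted p = 0.157 by edgeR), while Il7, a cytokine for lymphoid progenitors, had a log2 fold change of -0.21 ± 0.19. For the fatty acid transporter Cd36 and the adipokine Adipoq Δ/Δ replicate 1 alone was high, the 3 Δ/Δ libraries reading 26.4, 9.73 and 9.79 CPM for Cd36 and 48.4, 20.8 and 21.6 CPM for Adipoq. Among 21 genes of mature osteoblasts and osteocytes Smpd3, a sphingomyelinase needed for mineralization, rose from 46.04, 46.96 and 46.1 to 83.8, 78.4 and 79.01 CPM (log2 0.79 ± 0.15). It lost that call without any 1 library (adjusted p up to 0.0993 by edgeR). The 19 PPAR pathway genes, taken from those the study plotted for these same libraries and so not independent evidence of a direction, had 1 call (Pparg, lower) and a median of -0.06.

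**Figure D4:**
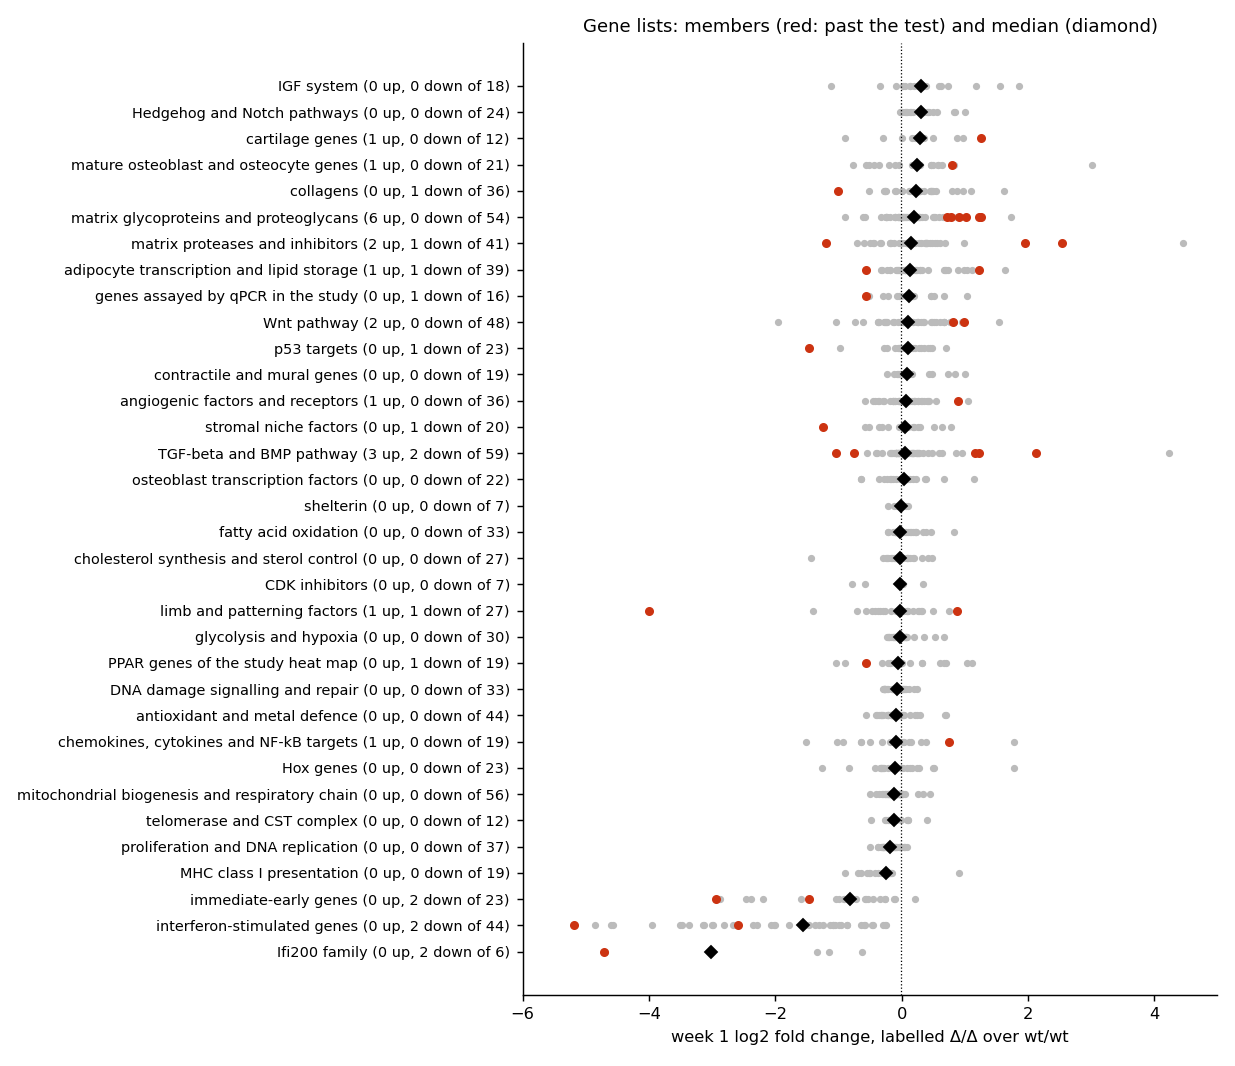
Week 1 log2 fold change (x axis) of the tested members of each gene list drawn (grey points, red where past the test) with the list median (diamond), and the number called up and down in each label; Ifi202b, with no count in the Δ/Δ libraries, is not drawn. Of the lists drawn, which leave out the Schlafen family with a median of -1.16, those furthest below 0 are the Ifi200 family, the interferon-stimulated genes (-1.57) and the immediate-early genes (-0.81), and the dotted line marks all genes.

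Among markers of other cell types, 2 of the 6 tested in the blood cell list were called, beside 1.02% of all genes. Lyz2 and Fcer1g, of macrophages and other myeloid cells, were the blood markers called, and both kept the call in all 6 fits without a library. Lyz2 was at 0.804, 0.897 and 0.804 CPM in wt/wt and 2.48, 3.15 and 2.46 CPM in Δ/Δ libraries, and Fcer1g at 3.19, 1.68 and 2.37 CPM in wt/wt and 11.6, 8.79 and 9.55 CPM in Δ/Δ libraries. The summed level of the 23 blood markers was 12.5 to 14.7 CPM in wt/wt and 19.8 to 22.3 CPM in Δ/Δ libraries, and Adgre1, Itgam and Tyrobp were at 0 in all 6. The higher sum lay in Fcer1g and Lyz2, since 3 of the 6 tested members had a log2 fold change below 0 and the list median was -0.07. Cd14, a lipopolysaccharide co-receptor, was at 7.06, 6.44 and 5.82 CPM in wt/wt and 5.14, 5.75 and 3.83 CPM in Δ/Δ libraries.

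The osteoclast list summed to 141 to 186 CPM in wt/wt and 111 to 135 CPM in Δ/Δ libraries without overlap, nearly all of it Nfatc1, a transcription factor also used by other cells, at 138, 183 and 176 CPM in wt/wt and 108, 121 and 132 CPM in Δ/Δ libraries (adjusted p = 0.122 by edgeR). In that list 0 of 3 tested genes were called, with 1 under 0.05 before adjustment by edgeR and 1 called by DESeq2, and Dcstamp and Calcr were at 0 in all 6. The muscle list, overlapping at 57.5 to 87.8 CPM in wt/wt and 64.3 to 107 CPM in Δ/Δ libraries, was nearly all Acta1, skeletal actin, with Myf5, Myog and Pax7 at 0. The 12 endothelial markers summed to 5.97 to 8.69 CPM in wt/wt and 8.73 to 10.2 CPM in Δ/Δ libraries, and 2 were tested. Of these the angiopoietin receptor gene Tek was called (1.23 ± 0.22), beside 0.752% of all genes called higher. Its call was lost without wt/wt replicate 1 or 2 or Δ/Δ replicate 2 or 3 (adjusted p up to 0.0994 by edgeR). Egfl7 did not rise, at 4.11, 3.86 and 5.40 CPM in wt/wt and 4.30, 2.87 and 3.83 CPM in Δ/Δ libraries. Pecam1, Cdh5, Tie1 and Emcn were near 0. Fewer cells of a type and less RNA per cell cannot be told apart in such libraries. Some lists had 1 called rise each, beside 0.752% of all genes called higher. Vegfc, a lymphatic growth factor (0.89 ± 0.17), was that of 36 angiogenic factors and receptors tested. Icam1, an adhesion molecule (0.75 ± 0.14), was that of 19 chemokines, cytokines and NF-kB targets. Foxf2, a mesenchymal forkhead transcription factor (0.88 ± 0.18), was that of 27 limb and patterning factors, of which Six2 was called lower. Vegfc and Icam1 kept no call when any 1 library was left out and Foxf2 only without Δ/Δ replicate 2, with adjusted p up to 0.131, 0.125 and 0.203 by edgeR.

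By position, chromosome 1 had the largest share of called genes, 18 of 747 tested (2.41%, beside 1.02% of all genes), and 11 of the 35 falls. They were spread over chr1:43730602-184075636 (GRCm38.p6). Besides Pam, Prelp, Btg2, Fcer1g, Ifi203 and Ifi202b they included Ugt1a6b, a glucuronosyltransferase (log2 -2.98 ± 0.25), the pseudogene Hmga2-ps1 (-2.32 ± 0.28), the microtubule protein Map2 (-2.14 ± 0.43), the phosphatase Dusp10 (-0.86 ± 0.16), the tubulin Tuba4a (-0.79 ± 0.14) and the potassium channel subunit Kcne4 (-0.78 ± 0.14), all lower, and the kinase Stk25 (0.66 ± 0.10), D2hgdh, a mitochondrial dehydrogenase (0.68 ± 0.13), Mfsd6 (0.84 ± 0.17) and 1500015O10Rik (1.32 ± 0.23), all higher. Ugt1a6b was at 3.48, 4.602 and 4.09 CPM in wt/wt and 0.605, 0.497 and 0.456 CPM in Δ/Δ libraries. Stk25 was at 122, 111 and 114 CPM in wt/wt and 174, 182 and 191 CPM in Δ/Δ libraries.

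Several of these values may mix genes. Ugt1a6b shares exons with 8 other Ugt1a genes, Hmga2-ps1 is a copy of Hmga2, and, since the library kit does not mark strand, Tuba4a and Stk25 cannot be separated from Stk16 and Farp2, which overlap them on the other strand. The same holds for Smpd3 with Prmt7 and Slfn5 with Slfn5os, and for Prelp, Map2, Pop4, C1s1, Col15a1, Cftr, Icam1, Foxf2 and Usp18 with predicted genes on the other strand, while Pam shares exon sequence with B230216N24Rik on its own strand. Ugt1a6b, Hmga2-ps1, Stk25, Pam, Prelp, Fcer1g and Ifi202b were called in all 6 fits without a library. Btg2, Ifi203, Map2, Dusp10, Tuba4a, Kcne4, D2hgdh, Mfsd6 and 1500015O10Rik were each lost in at least 1 of those fits, with adjusted p up to 0.209 by edgeR for Map2 (without Δ/Δ replicate 3).

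Around Pot1a on chromosome 6, 70 genes were tested within 10 Mb, with a median of -0.04. Of these 3 were called, beside 1.02% of all genes. They were Cav1, described above, Cftr, the chloride channel of cystic fibrosis, and Fam180a. Cftr had 84 counts over the Δ/Δ and 3 over the wt/wt libraries, a ratio of 35.4 with an exact counting interval of 11.7 to 175. Fam180a had 51 and 6 counts, a ratio of 10.7 (4.61 to 30.6), and these intervals cover counting error only. Cftr was called in no fit that left out a library (adjusted p up to 0.145) and Fam180a in all but that without Δ/Δ replicate 3 (0.0547, both edgeR).

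**Figure D5:**
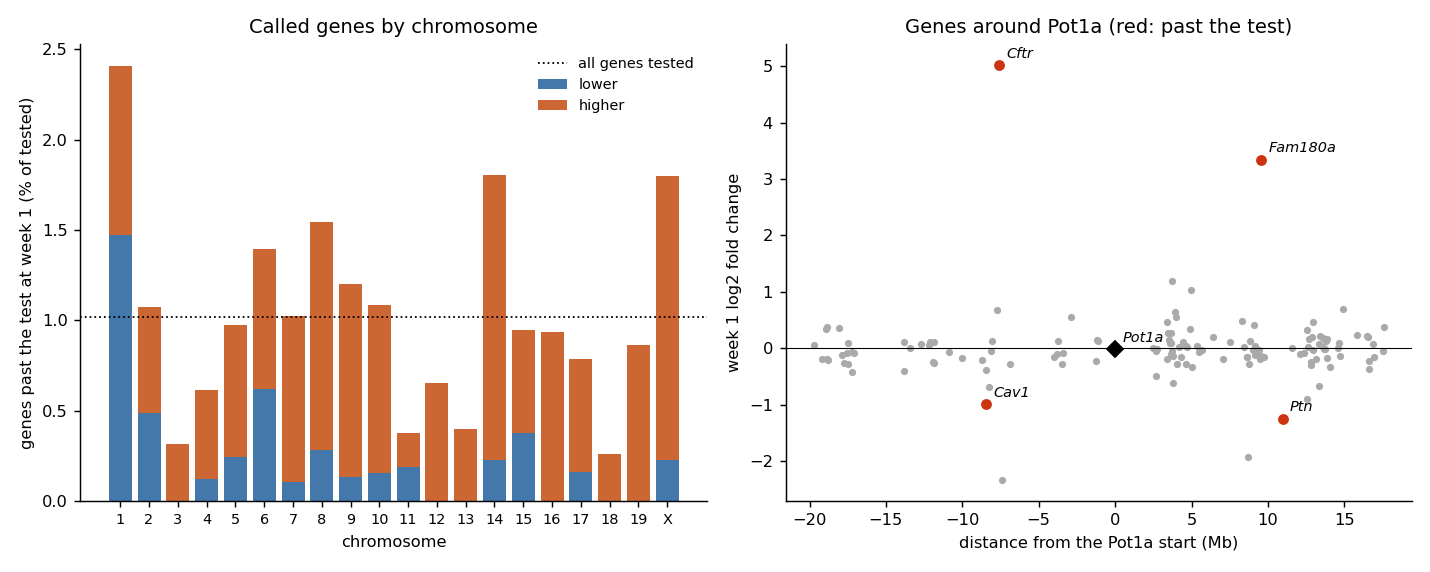
Left, genes past the test at week 1 as a percentage of genes tested (y axis) on each chromosome (x axis), lower and higher stacked, with the share of all genes as a dotted line; right, week 1 log2 fold change (y axis) of genes within 20 Mb of Pot1a against distance from its start (x axis), Pot1a as a diamond. Chromosome 1 stands at 2.41%, and Pot1a lies at 0.

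The week 4 libraries were fitted together with those of week 1, each library taken as independent. The fit showed which week 1 effects were called again. At week 4, 15.7% of genes were called, and of the 134 week 1 genes 89 were, 66 in the same direction and 23 in the opposite one. Of the 35 falls, 13 were called lower again and 11 higher, and of the 99 rises, 53 higher and 12 lower. The difference of the effects between the weeks passed the test in 54 of the 134, beside 7.15% of all genes. On chromosome 1, 13 of the 18 were called in the same direction and none in the opposite one, and the difference was called in 4 of the 18, against 50 of the 116 called elsewhere.

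Pam (week 4 log2 -2.32 ± 0.13), Six2 (-3.42 ± 0.24), Mmadhc (-1.03 ± 0.11), Cav1 (-1.34 ± 0.15), Prelp (1.596 ± 0.14), C1s1 (0.90 ± 0.09) and Stk25 (0.66 ± 0.10) were called again on the same side, and none of their differences between the weeks passed the test. Ifi202b again had no count in any library labelled Δ/Δ. Other genes turned. Plac8, lower at week 1, was higher at week 4 (2.78 ± 0.20), and the difference had an adjusted p of 3.33e-06 by edgeR. Grem1 (3.17 ± 0.24 at week 4, 8.80e-06 for the difference by edgeR) and Pparg (1.00 ± 0.10, 4.59e-05) turned the same way. Smpd3 (-2.49 ± 0.15, 4.42e-06) and Gucy1a3, a subunit of the nitric oxide receptor (-0.79 ± 0.14, 3.14e-05), were higher at week 1 and lower at week 4. Nov (CCN3), a matricellular protein, was higher at both times, by 0.96 ± 0.17 and 3.76 ± 0.19, with a larger effect at week 4 (3.04e-05 for the difference by edgeR). Its week 1 call was kept only without wt/wt replicate 1 among the 6 fits that left out a library (adjusted p up to 0.105 by edgeR). Fam180a turned from 3.35 ± 0.53 to -5.05 ± 0.35. Susd2 (-0.09 ± 0.16) and Csgalnact1 (-0.34 ± 0.14) were not called at week 4, and their differences from week 1 passed the test.

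Interferon-stimulated genes turned between the weeks. At week 4, 36 of the 44 were called higher in the Δ/Δ libraries, beside 9.20% of all genes, with a median of 1.84, and the difference between the weeks was called in 38. Oas1a went from -5.18 at week 1 to 6.68 ± 1.24 at week 4 (adjusted p = 0.000441 for the difference by edgeR), Bst2 to 1.70 ± 0.51 and Slfn5 to 1.22 ± 0.30. Ifi203 had a week 4 value of 0.82 ± 0.56, which was not called. Mature osteoblast and osteocyte genes, of which 1 of 21 was called at week 1, had 16 called lower at week 4, beside 851 of all 13169 genes tested. The difference was called in 14, beside 7.15% of all genes.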

How the data were processed

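RNA of the sorted cells was sequenced with SMART-Seq v4 and Nextera XT libraries, which do not mark strand. According to the submitters' notes and the study's methods, the authors used HISAT2 2.0.4 for alignment to mm10 and featureCounts 1.6.3 for counting, and the deposited table holds raw counts per gene symbol. Groups came from the sample labels, and 0 columns of per-sample values were left unmapped.

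All 12 cultured libraries entered a single fit in edgeR 4.0.16 (R 4.3.3, limma 3.58.1), with 1 coefficient per group, TMM scaling, filterByExpr at a minimum count of 10, and the quasi-likelihood F test, its p-values adjusted after Benjamini and Hochberg (threshold 0.05) over all 13169 genes tested. SE is the absolute log2 fold change divided by the square root of F. The fit was tested on simulated data. DESeq2 1.42.0 and the other alternatives are given in the closing section. Exact permutation tests used scipy 1.17.1. Of 24421 symbols, 24300 were matched to RefSeq (GRCm38.p6) for positions. Exon overlaps were taken from the GENCODE annotation of the same assembly.

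Named are Pot1a, qPCR genes, Cd36 and the 15 largest rises and falls with a mean log2 CPM of 3 or more and no overlap. Also named are up to 4 called genes of each list (or 2 of smallest p). Called genes of chromosome 1 and within 10 Mb of Pot1a, and the 6 with the smallest p for the difference between the weeks, complete them. Not all of these are described, and some are not reported here. C1s1, Hp, Porcn, Bmper, Usp18, Ifit1, Isg15 and Egr1 were chosen after their values were seen where the rule did not name them, as were the lists of complement, semaphorin and Schlafen genes. Members and lists were chosen with earlier results of these data known. The p-values measure the spread between 3 libraries per group.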

Additional observations from a re-analysis of the deposited data

Results flagged for a closer look

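The genotype effect at week 4 differed from that at week 1, by an edgeR test of the difference itself over all genes, in 43 of the 97 genes examined by name. Each value that follows is the week 4 log2 fold change minus that of week 1, so that a positive value means a higher Δ/Δ level relative to wt/wt at week 4. The causes were not tested.

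Among interferon-related genes the difference was 11.87 for Oas1a, 9.77 for Usp18, 7.98 for Ifit1, 6.96 for Isg15, 5.52 for Ifi203, 4.29 for Bst2 and 2.91 for Slfn5. All of these were lower in the Δ/Δ libraries at week 1. Among immediate-early and stress genes it was 3.14 for Nr4a1, 2.44 for Sgk1, 2.27 for Egr1 and 1.88 for Btg2.

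Other genes with a lower Δ/Δ level at week 1 also had positive differences. They were 4.27 for Plac8, 4.22 for Grem1, 2.69 for Cdkn1c, 2.67 for Ptn, 2.23 for Sncg, 1.57 for Ugt1a6b, 1.56 for Pparg, 1.32 for Id1 and 1.03 for Fap.

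Rises of week 1 that were larger at week 4 were those of Nov (2.80), Fbln7 (1.39), Vegfc (1.11), Fzd4 (0.99), Chrdl1 (0.92) and Clu (0.92).

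Rises of week 1 that were smaller, absent or turned at week 4 included secreted and matrix genes, with -4.15 for Adamts17, -3.28 for Smpd3, -2.07 for Nog, -1.85 for Bmper, -1.59 for Porcn, -1.46 for Csgalnact1, -1.11 for Gdf10 and -0.74 for Sema3b. The difference was -8.40 for Fam180a, which rests on few counts at week 1, -3.07 for Gucy1a3, -1.61 for Susd2, -1.43 for Lyz2, -1.29 for Icam1 and -1.11 for Tek. Of the bone genes that were not called at week 1, it was -1.87 for Col1a1 and -1.44 for Alpl. It was 1.94 for the actin gene Acta1, also not called at week 1.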

How the results depend on the processing

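The week 1 count of 134 genes (99 higher, 35 lower) depended on the tool and the filter. DESeq2 called 445 (276 higher, 169 lower), a fit of only the 6 week 1 libraries 237 (167 and 70), a minimum of 10 counts in every cultured library 85 (65 and 20), and no filter 192 (132 and 60). Thresholds of 0.01 and 0.10 gave 40 and 331, and at least 2-fold 83. Other scalings (RLE 131, library size 124) and thinned counts (95) stayed within 1.5 times. Leaving out each library gave 49 to 181 calls, 30 to 111 higher and 15 to 70 lower. The difference between the weeks was called in 647 to 1237 genes, beside 942. Pot1a at week 1 stayed short of the threshold throughout. Its sign was reversed in thinned counts (0.0323), without wt/wt replicate 3 (0.0198) and without Δ/Δ replicate 1 (0.0461). Its log2 fold change ranged from -0.0841 to 0.0461 when a library was left out.

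Same-numbered wt/wt and Δ/Δ libraries of week 1 did not deviate together (r = 0.05, -0.06 and -0.08 over genes). These correlations show no pairing of the groups over genes, and cannot decide whether same-numbered cultures were handled together. Pairing of week 1 with week 4 libraries was not checked, and the main fit took them as independent. With a replicate block 115 genes were called in 6 libraries and 109 in 12, of which 74 and 98 were among the 134, and the difference between the weeks was called in 886.

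Of the 70 called genes examined by name, 25 kept the call under every alternative in which they were tested (15, or 14 for the 6 that a minimum of 10 counts removed), leave-one-out fits included, and none of the 70 changed sign. Of the 44 interferon-stimulated genes, DESeq2 called 24 and the block in 6 libraries 9, and of the 23 immediate-early genes 11 and 0. The cause of these shifts was not tested. Of the 134 called genes, 69 lay under a mean log2 CPM of 3. With 3 libraries a group, small changes in low genes may have been missed, and how small a change could be detected there was not tested.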
